A study of Mus musculus with 6 samples.

Results

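The genes described here encode brakes on cytokine signalling. The 10 are the suppressors of cytokine signalling Socs1 to Socs7, their relative Cish, and the tyrosine phosphatases Ptpn1 (protein PTP1B) and Ptpn2 (protein TCPTP). They were matched by gene symbol, and no measured value entered that match. The set itself was chosen with earlier results of these data known. All 10 were found among the 24493 genes of the deposited table, and all 10 were among the 13720 genes that reached 1 TPM in at least 2 libraries and were tested. TPM, the deposited unit, is an estimate of transcript abundance per unit of transcript length in which every library sums to one total. The 6 libraries were bulk RNA sequencing of pancreatic tumor cells named 6419c5, a single tumor cell clone, which were grown under the skin of C57BL/6 mice and then sorted from the tumors. Of these, 4 were from control tumors. The other 2 were from tumors given GAFCP, that is gemcitabine and abraxane (2 chemotherapies), an agonist of CD40, and blocking antibodies to PD-1 and CTLA-4. The labels do not say what the control tumors received, how old the mice were, how the cells were gated or whether each library came from a separate animal. What the p-values weigh is thus the scatter among these 6 libraries, and that scatter may be technical.

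Cytokines such as interferons and the interleukin-6 family bind receptors that carry JAK kinases, which phosphorylate STAT transcription factors. Some SOCS proteins are made in response to the STATs and close the loop. An SH2 domain binds the phosphorylated receptor or kinase. A SOCS box recruits Elongin B, Elongin C and Cullin 5 to mark that protein for degradation. SOCS1 and SOCS3 also block the JAK active site directly. PTP1B and TCPTP remove phosphate from JAKs, STATs and growth factor receptors, and loss of SOCS1 or TCPTP is known to make tumor cells more sensitive to interferon gamma.

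Of the 10 brake genes, Socs1 and Socs3 had by far the largest changes. Socs1 was 4.33-fold and Socs3 2.67-fold higher in mean TPM with GAFCP. Cish rose by 1.22-fold and Ptpn2 by 1.09-fold, and Socs2 and Socs5 fell to 0.872 and 0.82 of their control means. Socs4, Socs6, Socs7 and Ptpn1 did not pass the test. In all, 4 members were called higher and 2 lower (limma, adjusted p under 0.05 over all genes tested), or 60% of the members. Over all genes tested 47.5% were called, 19% higher and 28.5% lower, so the share of members called lies not far above the background. With median-of-ratios scaling 3460 genes were higher and 3424 lower (50.3% of calls higher, against 40% with TPM as deposited), and 5 members were higher and 2 lower. The GAFCP and control libraries did not overlap for 6 of the 10 members, 4 of them higher and 2 lower, where 61.6% of all genes tested did not overlap (24.7% higher and 36.9% lower). The median log2 change was 0.03 over the members and -0.07 over all genes tested, and Socs1 and Socs3 stood at percentiles 98.9 and 97.1 of all changes.

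Markers of other cell types moved in the same libraries as Socs1, Socs3 and Cish. The summed TPM of 10 pan-leukocyte markers was 111.2 to 130.0 in the controls and 319.2 to 330.7 with GAFCP (2.66-fold). Of these, 9 reached the filter without the GAFCP libraries and all 9 were called higher, and Cytip reached it only through them. Of 15 macrophage and monocyte markers 14 were higher, their sum going from between 933.3 and 987.3 to 3105 and 3108 (3.27-fold). The sums of 12 T and NK cell markers (7.93 to 10.2, then 44.1 to 48.4) and 11 neutrophil markers (36.5 to 41.9, then 110.6 to 120.1) stood higher in both GAFCP libraries too, with Ncr1, Ly6g, Camp and Ngp at 0 in at least 1 library. Of the T and NK cell markers 2 were below the filter and 6 passed only through the GAFCP libraries, and of the neutrophil markers 4 and 1. Of the 7 neutrophil markers tested 5 were called higher and 0 lower. S100a8 went from a mean of 13.2 to 56.6 TPM and S100a9 from 7.70 to 30.9 TPM. Mmp9 (means of 10.1 and 10.7 TPM) and Retnlg (2.63 and 1.77 TPM) were not called. B and plasma cell markers (5 genes, Cd79b and Mzb1 at 0 in at least 1 library) were at 0.965 to 1.66 and 6.18 to 6.72. Of these 5, 4 were below the filter, and Jchain went from a mean of 0.905 to 4.37 TPM. Dendritic cell markers were at 4.29 to 5.04 and 4.92 to 5.72, and endothelial markers at 15.1 to 17.3 and 13.0 to 14.1, with 4 and 5 genes below the filter. Fibroblast and pericyte markers were at 226.0 to 247.5 and 361.9 to 362.5, and of 11 tested 7 were called higher and 2 lower. The epithelial tumor cell markers, which check the label, summed to between 6806 and 7189 in the controls and to 5176 and 5206 with GAFCP. Of these 8, 6 were called lower and none higher, and none was at 0 in any library. Epcam, named after its values were seen, went from a mean of 12.8 to 1.54 TPM. The part of these markers in the changes of Socs1, Socs3, Cish, Ptpn2, Socs2 and Socs5 was not tested, and in bulk RNA fewer cells of a type cannot be told apart from less RNA per cell.

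**Figure D1:**
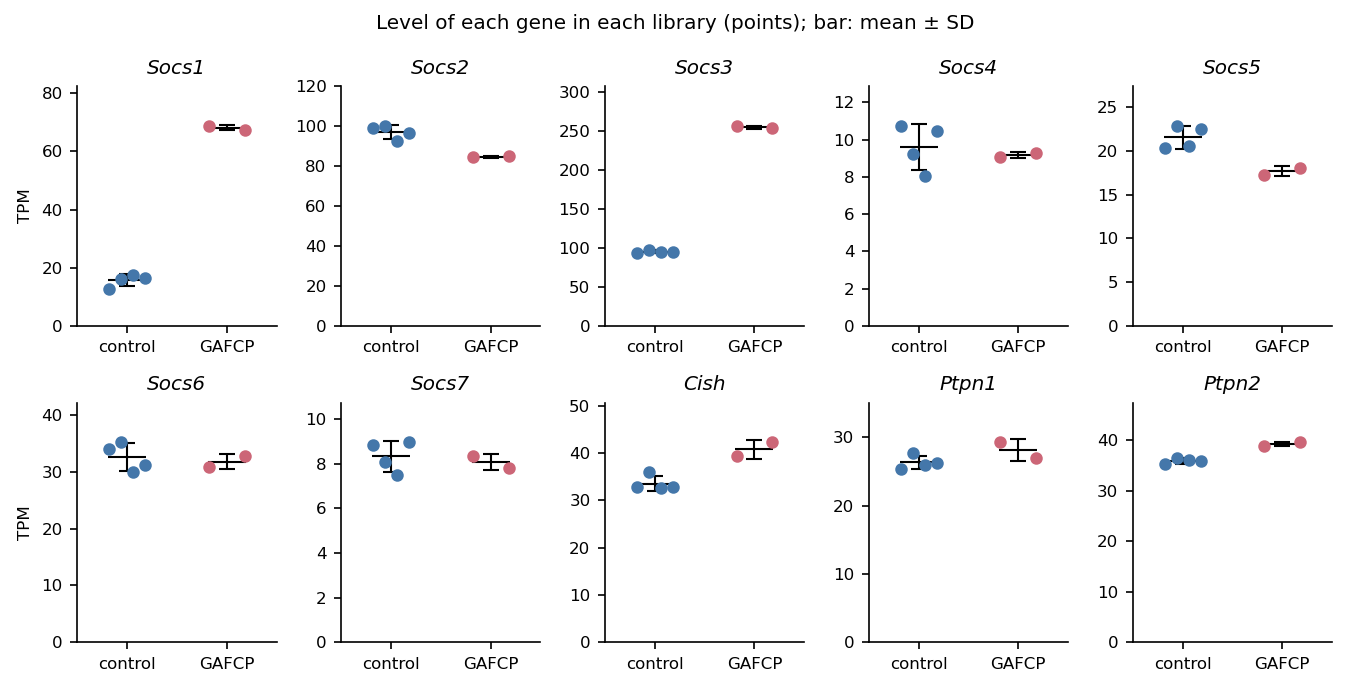
TPM (y axis, from 0) of each of the 10 genes in each control library (blue, 4) and GAFCP library (red, 2); black bars give the mean ± SD. The GAFCP points stand far above the controls for Socs1 and Socs3, slightly above for Cish and Ptpn2, below for Socs2 and Socs5, and among them for Socs4, Socs6 and Socs7; for Ptpn1 GAFCP library 1 is above every control and library 2 is among them.

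The start regions of Socs1, Socs3 and Cish are shown because they hold letters of the kind that STAT and interferon factors read. RefSeq promoter windows of 300 bases (GRCm38.p6, 250 before to 50 after the start) were given for 5 of the 10 members: Socs1, Socs3, Socs4, Cish and Ptpn1. The motifs searched, on both strands, were TTCNNNGAA (the palindrome of the STAT type, N being any base), the same with 1 more base in the spacer, which STAT6 prefers, and the core of interferon-stimulated response elements, which is GAAA repeated with any 2 bases between. The first 2 sequences are the 250 bases before the start on the minus strand of chr16:10785537-10785786 and chr11:117969367-117969616. The third is 30 bases across the start of Cish on the plus strand, chr9:107296654-107296683. Capitals mark the motif matches.
Socs1: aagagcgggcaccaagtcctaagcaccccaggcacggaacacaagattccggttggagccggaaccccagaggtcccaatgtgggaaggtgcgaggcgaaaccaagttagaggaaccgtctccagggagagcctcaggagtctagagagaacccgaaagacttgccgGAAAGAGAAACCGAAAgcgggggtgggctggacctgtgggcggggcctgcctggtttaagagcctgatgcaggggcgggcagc
Socs3: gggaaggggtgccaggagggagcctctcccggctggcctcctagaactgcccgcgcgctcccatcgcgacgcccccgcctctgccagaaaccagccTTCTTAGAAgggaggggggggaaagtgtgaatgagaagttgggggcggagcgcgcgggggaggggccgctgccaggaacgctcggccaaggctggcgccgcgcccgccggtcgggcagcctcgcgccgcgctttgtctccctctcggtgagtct
Cish: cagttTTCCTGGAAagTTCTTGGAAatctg

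The Socs1 window held 2 overlapping matches to the response element core, beginning 83 and 77 bases before the start and sharing letters. Among 32851 promoter windows from RefSeq, 3.44% held this motif and 0.225% held it at least 2 times. Socs3 held 1 match to TTCNNNGAA, beginning 154 bases before the RefSeq start. The Socs3 stretch lies inside the gene as GENCODE M21 bounds it. Cish held 2, at the start itself and 11 bases after it, and these too lie inside the gene as GENCODE M21 bounds it. TTCNNNGAA was found in 8.30% of all windows and at least 2 times in 0.457%. The windows of Socs4 and Ptpn1 held none of the 3 motifs. No windows of Socs2, Socs5, Socs6, Socs7 and Ptpn2 were searched, so the matches cannot be set against the calls. The motif with the wider spacer (6.95% of windows) was in none of the 5 members' windows. A match is a description of letters in a short window, and so is the lack of one, since binding was not measured.

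Socs1, whose product inhibits JAK1, JAK2 and TYK2 and is the main brake on interferon gamma, lies on chromosome 16 from 10782240 to 10785536 (GRCm38, minus strand; whole gene). It was at 12.8, 16.2, 17.4 and 16.6 TPM in control libraries 1 to 4 and at 68.7 and 67.5 TPM in GAFCP libraries 1 and 2. Both GAFCP libraries were far above every control, and control library 1 was the lowest. The means were 15.7 ± 2.03 TPM (SD, n = 4) and 68.1 ± 0.896 TPM (SD, n = 2). The limma log2 change was 2.05 ± 0.11 (SE; adjusted p = 4.1e-06) on the log2(TPM + 1) scale, where low genes show less than their full change.

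Socs3 restrains signalling by the IL-6 family, whose shared receptor chain it binds, and lies on chromosome 11 from 117966079 to 117970047 (minus strand). It was at 93.7, 97.7, 94.95 and 94.5 TPM in the controls and at 255.9 and 253.1 TPM with GAFCP. The controls lay close together and both GAFCP libraries were far above them. The means were 95.2 ± 1.73 TPM (SD, n = 4) and 254.5 ± 2.01 TPM (SD, n = 2), and the log2 change was 1.41 ± 0.03 (SE; limma adjusted p = 6.6e-08).

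Cish and Socs2 are classical STAT5 targets, and SOCS2 restrains growth hormone signalling. They moved in opposite directions. Cish (chromosome 9, 107296026 to 107302784, plus strand) was at 32.8, 35.9, 32.6 and 32.8 TPM in the controls and at 39.4 and 42.2 TPM with GAFCP. Control library 2 stood above the other controls, and both GAFCP libraries were above it. The log2 change of Cish was 0.28 ± 0.06 (SE; limma adjusted p = 0.00572), and without GAFCP library 2 the gene no longer passed (adjusted p = 0.067). In GENCODE M21 Cish overlaps 2 genes on the opposite strand, an antisense RNA and a pseudogene, neither listed under its GENCODE name in the table, and the sources used here do not give whether the counting used strand.

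Socs2 (chromosome 10, 95385362 to 95417180, minus strand) was at 99.1, 100.01, 92.5 and 96.6 TPM in the controls and at 84.3 and 84.99 TPM with GAFCP. The groups did not overlap, and the lowest control was library 3. Its log2 change was -0.20 ± 0.04 (SE; limma adjusted p = 0.00727), and the call was lost when GAFCP library 1 was left out (adjusted p = 0.0608).

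Socs4 and Socs5 are close relatives with long N-terminal regions that have been linked to the epidermal growth factor receptor. Socs5 (chromosome 17, 87107679 to 87137839, plus strand) was at 20.3, 22.8, 20.6 and 22.6 TPM in the controls and at 17.3 and 18.1 TPM with GAFCP. Both GAFCP libraries lay below every control. The limma log2 change was -0.27 ± 0.07 (SE; adjusted p = 0.0128). Without GAFCP library 1 it did not pass (adjusted p = 0.0983). Socs4 (chromosome 14, 47276931 to 47296102, plus strand) was at 10.7, 9.20, 8.07 and 10.5 TPM in the controls and at 9.06 and 9.27 TPM with GAFCP. The GAFCP libraries fell inside the control range, and the 95% interval of the log2 change ran from -0.31 to 0.20 (limma adjusted p = 0.709).

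Socs6 and Socs7, a second pair of relatives, have been tied to insulin and receptor kinase signalling. Socs6 (chromosome 18, 88665224 to 88927481, minus strand) was at 34.0, 35.1, 29.999 and 31.1 TPM in the controls and at 30.9 and 32.7 TPM with GAFCP, and Socs7 (chromosome 11, 97362551 to 97398542, plus strand) ranged from 7.50 to 8.95 TPM and was at 8.32 and 7.80 TPM with GAFCP. Controls 1 and 2 were the highest for Socs6, and for both genes the GAFCP libraries lay within the control range. In GENCODE M21 Socs6 overlaps 3 processed pseudogenes, on both strands, none listed under its GENCODE name in the deposited table. The 95% intervals of the log2 change were -0.20 to 0.14 for Socs6 (limma adjusted p = 0.748) and -0.24 to 0.16 for Socs7 (limma adjusted p = 0.735). The sign of the small difference in Socs4, Socs6 and Socs7 turned with median-of-ratios scaling, to 0.00256, 0.0309 and 0.0174. The sign for Socs6 also turned without control library 2 or GAFCP library 1, and that for Socs7 without GAFCP library 2, with the highest values at 0.00897 and 0.000885.

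The phosphatase genes had small differences. Ptpn2 (chromosome 18, 67665511 to 67724595, minus strand), whose product acts on JAK1 and JAK3, was at 35.2, 36.5, 36.1 and 35.8 TPM in the controls and at 38.9 and 39.5 TPM with GAFCP. Both GAFCP libraries were above every control by a small margin. The log2 change was 0.12 ± 0.04 (SE; 95% interval 0.02 to 0.22; limma adjusted p = 0.0458). This call was lost under 12 of 20 alternatives, among them leaving out any library but control library 3, with adjusted p between 0.0124 and 0.229 over all 20. Ptpn1 (chromosome 2, 167932057 to 167979385, plus strand), whose product acts on JAK2, TYK2 and the insulin receptor, was at 25.4, 27.7, 26.0 and 26.3 TPM in the controls and at 29.3 and 27.1 TPM with GAFCP. GAFCP library 2 fell below control library 2, and the 95% interval of the log2 change was -0.04 to 0.22 (limma adjusted p = 0.229). Ptpn1 passed with median-of-ratios scaling (log2 change 0.15, adjusted p = 0.043).

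**Figure D2:**
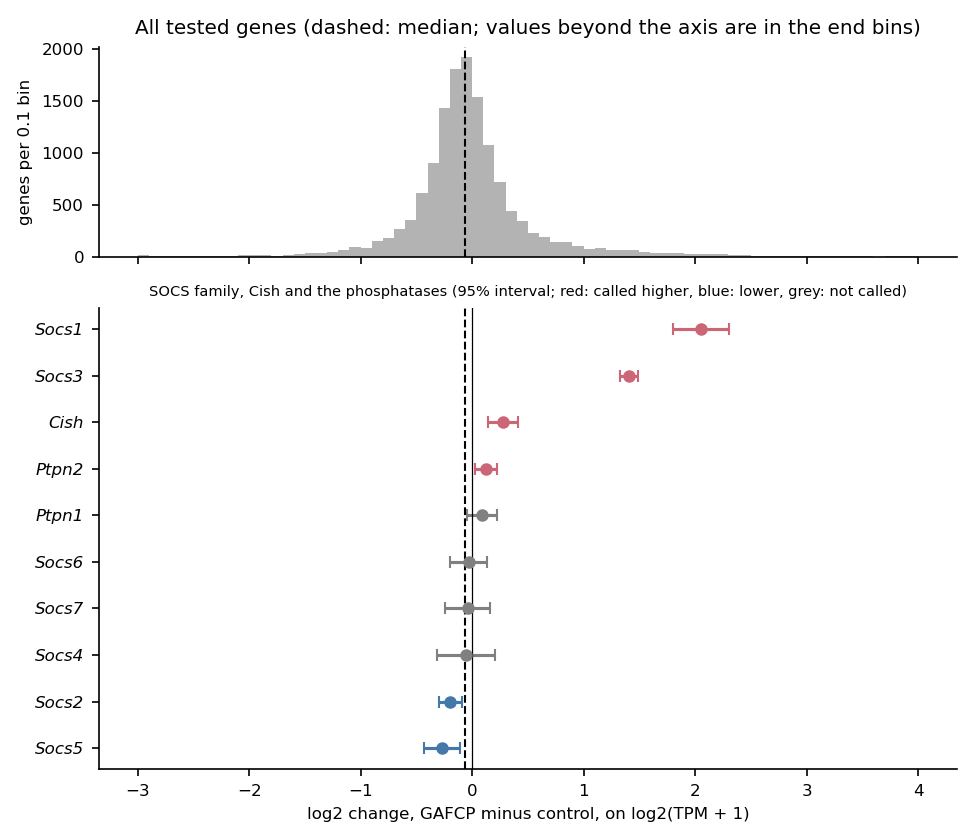
Log2 change of GAFCP minus control on the log2(TPM + 1) scale (x axis) for all 13720 genes tested (top, histogram) and for the 10 genes with 95% limma intervals (bottom; red called higher, blue called lower, grey not called). Socs1 at 2.05 and Socs3 at 1.41 lie in the right tail of all genes, and the other 8 lie between -0.27 and 0.28.

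In the order of levels, which TPM allows within a library because it is corrected for length, Socs2 (97.1 TPM) and Socs3 (95.2 TPM) led in the controls and their ranges overlapped. Ptpn2, Cish and Socs6 followed at 35.9, 33.5 and 32.6 TPM, with overlapping ranges between neighbours. Ptpn1, Socs5 and Socs1 came next without overlap, and Socs4 and Socs7 were the lowest and overlapped. With GAFCP Socs3 stood alone at the top, above Socs2 at 84.6 TPM, and Socs1 moved from rank 8 to rank 3. In that group the ranges of Cish and Ptpn2 overlapped, and those of all other neighbours did not, with 2 libraries behind each range.

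The summed TPM of the 8 SOCS family genes was 312.4, 325.0, 303.6 and 313.6 in the controls and 513.9 and 515.6 with GAFCP. Both GAFCP libraries were well above every control. The difference of mean log2 sums was 0.72 (two-sided exact permutation p = 0.0667 over 15 arrangements, the smallest this design allows). Socs3 made up at most 31.3% of it in the controls and 49.1% to 49.8% with GAFCP, and Socs1 4.10% to 5.75% and 13.1% to 13.4%. Socs2 went from between 30.5% and 31.7% to between 16.4% and 16.5%, and the shares of the other 5 genes were each lower in both GAFCP libraries than in any control. Shares of a fixed total fall when others rise, so they say nothing of a gene's own level: Cish was called higher in TPM while its share was lower.

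A ratio of TPM between 2 genes of a library is free of any factor that scales the whole library. Of 5 compared, 4 are reported, with p-values adjusted over all 5. Socs1 to Socs3 was 0.137, 0.165, 0.184 and 0.175 in the controls and 0.269 and 0.267 with GAFCP. Cish to Socs2 went from 0.345 ± 0.0123 (SD, n = 4) to 0.482 ± 0.0205 (SD, n = 2). The 2 groups did not overlap for either ratio, and the log2 differences, with 1 TPM added to each gene, were 0.64 and 0.47 (exact permutation p = 0.0667 each, adjusted p = 0.111 over the 5 ratios, two-sided). Ptpn2 to Ptpn1 was 1.36 ± 0.0332 (SD, n = 4) and 1.39 ± 0.0924 (SD, n = 2), which overlapped (exact permutation p = 0.533, adjusted p = 0.667). Its log2 difference turned negative, at -0.0333, without GAFCP library 2.

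The last ratio set Socs3 against the gene of STAT3, the factor whose activation it restrains. Stat3 rose from a mean of 68.3 to 96.7 TPM (log2 change 0.50). Socs3 to Stat3 was 1.36, 1.37, 1.51 and 1.36 in the controls and 2.70 and 2.57 with GAFCP, with no overlap and a log2 difference of 0.91 (two-sided exact permutation p = 0.0667, adjusted p = 0.111).

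**Figure D3:**
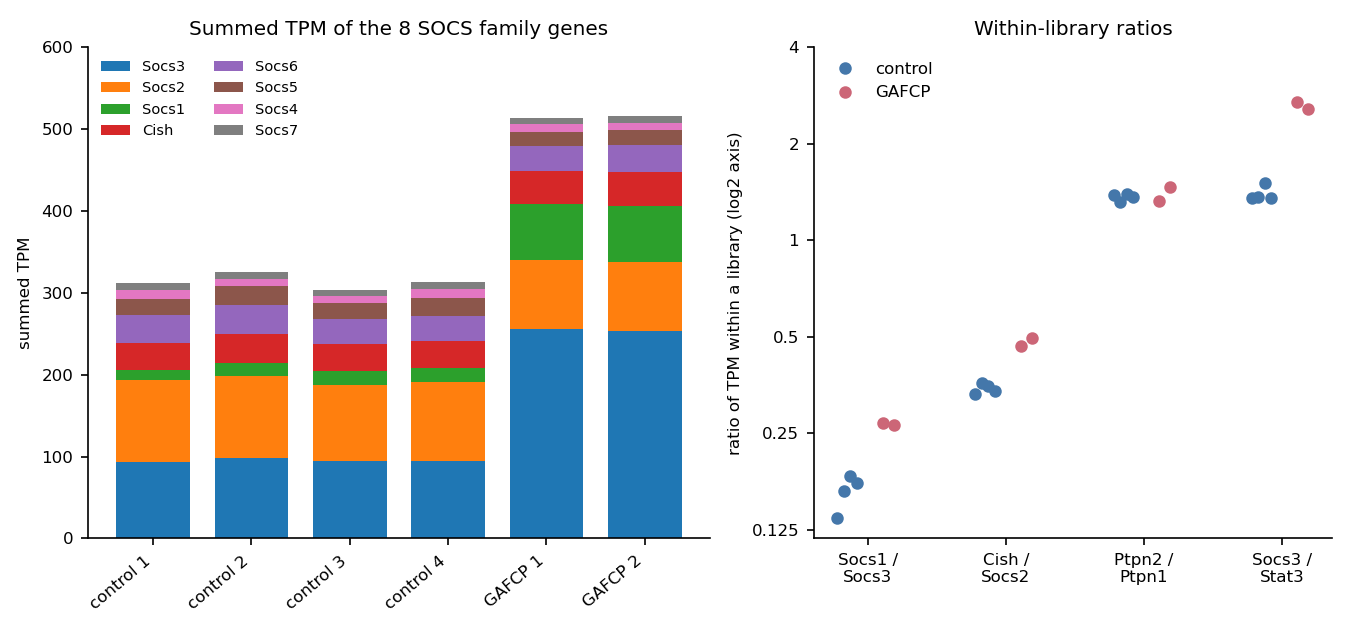
Left, summed TPM of the 8 SOCS family genes in each of the 6 libraries, stacked by gene; right, 4 within-library ratios of TPM on a log2 axis, controls in blue and GAFCP libraries in red. The sums rise from between 303.6 and 325.0 to 513.9 and 515.6, mostly through Socs3 and Socs1, and the ratio Socs3 to Stat3 is higher with GAFCP while Ptpn2 to Ptpn1 overlaps between the groups.

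The ligands and receptors upstream of these brakes changed unevenly. Beside the counts of each list stand 19% higher and 28.5% lower over all genes tested. Of 14 listed cytokine ligands 6 were below the filter. Ifng, the gene of interferon gamma, passed it only through the GAFCP libraries, at a mean of 0.124 TPM in the controls and 1.54 TPM with GAFCP. Of the other 7, 5 were higher and 1 lower (median log2 change 0.60, against -0.07 over all genes tested). Csf2, a myeloid growth factor whose receptor signals through STAT5, went from a mean of 9.03 to 37.5 TPM (log2 change 1.94). Lif and Osm, both of the IL-6 family, rose by 0.61 and 1.33 and Il15 by 0.60. Il6 itself stayed between 0.134 and 1.15 TPM and was not tested. Of 19 receptor genes tested 10 were higher and 4 lower (median 0.43). Il2rg, the shared chain of interleukin-2 type receptors and typical of blood cells, rose by 1.80, the oncostatin M receptor Osmr by 1.16, Il4ra by 0.96 and Il13ra1 by 0.87. The 4 that fell, named after their values were seen, were Ifngr1 (-0.37), Ifngr2 (-0.39), Ifnlr1 (-0.98) and Il22ra1 (-0.68).

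Of the 4 JAK kinase genes 2 were higher and none was lower, where 19% of all genes tested were higher and 28.5% lower. Jak3 and Jak1 rose by 0.31 and 0.24, while Jak2 (log2 change 0.11, limma adjusted p = 0.231) and Tyk2 (0.07, adjusted p = 0.279) did not pass. Jak2 and Tyk2 did pass with median-of-ratios scaling (limma adjusted p = 0.0114 and 0.0333) and with quantile normalization (0.026 and 0.0495). All 4 JAK genes were higher under either setting. Without GAFCP library 1 Jak1 did not keep its call (adjusted p = 0.0605), which left 1 JAK gene higher. Of 5 STAT genes tested and reported 4 were higher. Stat2, which acts in type I interferon signalling, rose by 1.55, whereas Stat6 and Stat5a rose by 0.18 and 0.23 and lost the call under 6 and 9 of 20 alternatives. Without control library 4, GAFCP library 1 or GAFCP library 2 neither passed, and 2 of these STAT genes were higher. Stat5b had a log2 change of 0.12 (limma adjusted p = 0.213). It passed with median-of-ratios scaling and with quantile normalization (limma adjusted p = 0.0311 and 0.0333).

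Among 10 other brakes on cytokine signals 3 were higher and 2 lower (median 0.00), against 19% higher and 28.5% lower of all genes tested. Usp18, which removes ISG15 and blocks the type I interferon receptor, went from a mean of 6.36 to 25.7 TPM (log2 change 1.87). Ptpn6, a phosphatase abundant in blood cells, rose by 1.12 from 5.49 TPM, and the ubiquitin ligase gene Cblb by 0.52. Pias3, an inhibitor of STAT3, fell by 0.49 on the log2 scale. The lower count was 1 without control library 4, GAFCP library 1 or GAFCP library 2. The partners that the SOCS box needs showed no call: of 6, none was higher or lower by limma, with 0 higher and 1 lower at an unadjusted p under 0.05. The 2 smallest limma p-values were those of Cul5 (log2 change -0.25, adjusted p = 0.0683) and Elob (0.10, adjusted p = 0.0925). Cul5 passed under 8 of 20 alternatives and Elob under 4, and both did without control library 3 (adjusted p = 0.00402 and 0.0342). Among 6 tested genes of other SOCS box proteins 2 were higher (Wsb1 by 0.59 and Spsb1 by 0.19) and 2 lower (Rab40c by -0.25 and Wsb2 by -0.16). Spsb1, Rab40c and Wsb2 lost the call under 9, 7 and 5 of 20 alternatives. The count higher was 1 without any library but control library 2, and the count lower was 0 without control library 4 or either GAFCP library.

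Downstream, of 11 STAT3 targets tested 8 were higher and 2 lower (median 0.43). The acute-phase gene Saa3 rose by 3.75, the kinase gene Pim1 by 1.44 and Timp1 by 1.06. Il4ra, counted among the receptors too, was also higher. The 2 that fell, named after their values were seen, were Lcn2 (-0.46) and Mcl1 (-0.14). The lower count there was 0 without GAFCP library 1 and 1 without GAFCP library 2 or control library 1, 2 or 4. Of 8 STAT5 targets 4 were higher and 1 lower (median 0.35). The shares over all genes tested were 19% higher and 28.5% lower. Igf1, Osm and Bcl6 rose by 1.38, 1.33 and 0.58, and the cyclin gene Ccnd1 fell by 0.57 on the log2 scale. Igf1 and Osm were low, at means of 1.52 and 2.02 TPM in the controls and 5.53 and 6.64 TPM with GAFCP. With a filter of a mean of at least 5 TPM, 2 STAT5 targets were called higher. Osm is counted among the cytokine ligands too. Of 7 genes for receptor kinases and adaptors on which PTP1B and TCPTP act 2 were higher (Irs2 by 0.29 and Src by 0.13) and 2 lower (Irs1 by -1.52 and Met by -0.46). Irs2 and Src lost the call under 4 and 8 of 20 alternatives. The count higher was 0 without either GAFCP library and 1 without control library 1 or 4.

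**Figure D4:**
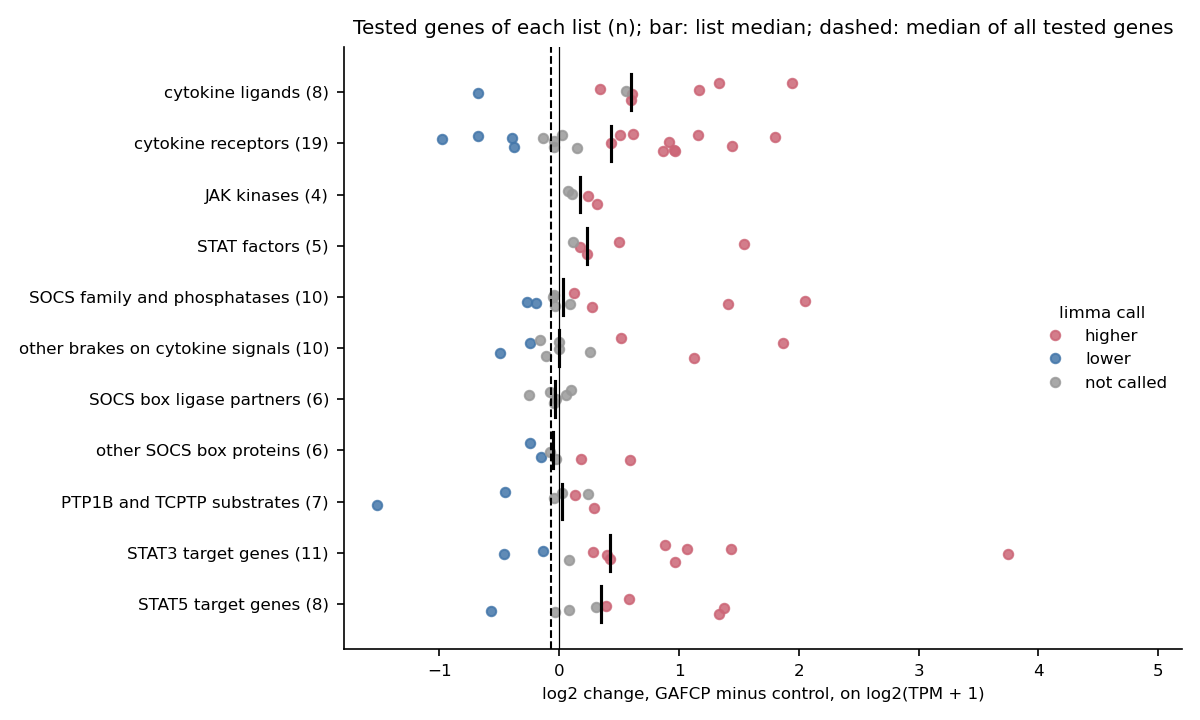
Log2 change of GAFCP minus control (x axis) of every tested gene in the 10-gene set and 10 lists of the same pathway; red points were called higher, blue lower and grey not called, black bars are list medians, and the dashed line is the median of all tested genes. The cytokine ligands lie mostly to the right (median 0.60), while the SOCS box ligase partners lie near 0 with no call. Among the ligands Ifng passed the filter only through the GAFCP libraries, and the median of the other 7 was also 0.60.

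The genes with the most similar profile were sought for each called member, as the smallest distance between log2(TPM + 1) profiles over the 6 libraries, each centred on its own mean, among 9776 other genes. For Socs3 they were H2-K1, B2m and H2-D1, with distances of 0.0378, 0.0409 and 0.0512 (log2 units) and log2 changes of 1.44, 1.43 and 1.38. For Socs1 they were S100a8, which neutrophils and monocytes express at high levels, Clec4a3, a lectin gene of myeloid cells, and Cbr2, at distances of 0.113, 0.197 and 0.214. Ifi27, Mars and Ptk2b were nearest to Cish (0.0475 to 0.0521), and Anapc5, Isca1 and Vcam1 to Socs2 (0.0241 to 0.0308). Sun2, Cdc20 and Tmtc4 were nearest to Socs5 (0.0315 to 0.0517), and Wbp4, Eno1 and Eif1 to Ptpn2 (0.0206 to 0.0303). These distances reflect mainly the size of the group difference, which all 6 libraries share.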

How the data were processed

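The authors deposited 1 table of TPM per gene. They used Salmon, with mm10 as the build, per the submitters' processing notes. Its version and the annotation were not given in the sources used here. Since TPM keeps no depth, depth is unknown, and the only measure of precision is how far libraries of a group differ. The titles gave each library's group and number.

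The test used the 13720 genes that reached 1 TPM in 2 or more libraries, as log2(TPM + 1), in limma 3.58.1 under R 4.3.3 (empirical Bayes with a trend, 4 residual degrees of freedom) and the Benjamini-Hochberg adjustment over all of them, with calls at adjusted p under 0.05. Log2 changes are GAFCP minus control. The test was tried on simulated data first. Single sums and ratios were compared by exact permutation over 15 arrangements. The members and all lists were chosen with earlier results of these data known. A few planned results (a ratio, a gene list and 2 listed genes) are not reported here, and the counts and sums leave them out. Named genes were the 10 members, the 4 genes of each list with the smallest p, Jak2, Stat3, Stat5a, Stat5b, Usp18 and Ptpn6, and the 3 nearest profiles of each called member with a mean of at least 5 TPM, leaving out predicted and small RNA genes. Il6, Ifng, Epcam, Ifngr1, Ifngr2, Ifnlr1, Il22ra1, Lcn2 and Mcl1 were named outside this rule, after their values were seen. So were the markers Cytip, Ncr1, Ly6g, Camp, Ngp, Cd79b, Mzb1, Jchain, S100a9, Mmp9 and Retnlg. Alternatives changed the pseudocount (0.1 and 5), filter, scaling, variance model, weights, replicate block and libraries used. Gene positions are from GENCODE M21 on GRCm38 (mm10) and sequences from RefSeq on GRCm38.p6.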

Additional observations from a re-analysis of the deposited data

Results flagged for a closer look

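Among 54 values compared over the 4 control libraries, 5 had 1 library standing apart from the other 3 by Dixon's 95% criterion, where chance flags about 1 in 20. Cish was at 35.9 TPM in control library 2 and between 32.6 and 32.8 TPM in the other controls. Ube2f, which encodes a NEDD8-conjugating enzyme, was at 35.7 TPM in control library 2 and at 32.7 to 33.2 TPM in the others. Control library 3 was apart for the other 3 values. Usp18 was at 4.94 TPM there and at 6.74 to 6.99 TPM elsewhere, and Stat2 at 14.0 TPM against 15.7 to 15.9 TPM. The ratio of Socs3 to Stat3 was 1.51 there and 1.36 to 1.37 in the others.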

How the results depend on the processing

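Socs1 and Socs3 kept their direction and call under all 20 alternatives, with log2 changes of 1.82 to 2.17 and 1.35 to 1.47. Socs2, Socs5 and Cish each lost the call under 1 alternative, a left-out GAFCP library, and Ptpn2 under 12. Leaving out 1 library gave 2 to 4 members called higher and 0 to 2 called lower. It gave 1715 to 2610 genes higher and 2514 to 4641 lower over all genes, and 9 to 16 genes lower over the pathway lists. The lowest of these came from leaving out GAFCP library 1 or 2, where 1 GAFCP library remained and was assumed to vary as the controls did. Signs turned for Socs4 (0.00256), Socs6 (0.0309) and Socs7 (0.0174) with median-of-ratios scaling. They turned for Socs6 (0.00465), Elob (-0.0340) and Nedd8 (-0.0274) with quantile normalization, and for Socs6 with control libraries 3 and 4 alone (0.0551). When 1 library was left out, the Socs6 log2 change ran from -0.0720 to 0.00897, the Socs7 log2 change from -0.0841 to 0.000885 and the Ube2f log2 change from -0.182 to 0.0319. None of these reversed values was a called change, and the cause was not tested. The log2 difference of the ratio Ptpn2 to Ptpn1 ran from -0.0333 to 0.0975 when 1 library was left out. With the replicate number as a replicate block 3 members were higher and 2 lower, and 2128 genes were higher and 3766 lower over all genes. Control libraries 3 and 4 have no GAFCP library of the same number and add nothing to the log2 changes of that fit. These equal the changes with control libraries 1 and 2 alone (Ptpn2 at 0.126 in both), so the 2 alternatives are not independent. The replicate numbers share no source in the labels, and deviations of same-numbered libraries correlated at -0.01 and -0.02. Depth is unknown, so no limit on low values could be set.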
